A study of Homo sapiens with 9 samples.

Results

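The genes described here were 6 polyadenylated replacement histone genes, H3-3A, H3-3B, H2AZ1, H2AZ2, H1-10 and MACROH2A1, out of 21986 genes with a binding peak in any library. They were taken by name, and their binding was read from every deposited peak that overlapped the gene on its own strand in GRCh38. Antibody-barcode eCLIP (ABC) crosslinks RNA-binding proteins (RBPs) to RNA with ultraviolet light, pulls them down with antibodies that carry a DNA barcode, and joins the barcode to the bound RNA, so that several RBPs are read from 1 tube. The libraries came from untreated, crosslinked K562 cells, a human leukaemia line, and HEK293T cells, a human embryonic kidney line that the labels name so and the methods call HEK293XT. Antibodies against the 10 RBPs DDX3, EIF3G, FAM120A, IGF2BP2, LIN28B, PRPF8, PUM2, RBFOX2, SF3B4 and ZC3H11A were pooled (the 10plex) in 3 K562 pools and 2 HEK293T pools, and single antibodies were used for SLBP in K562 (2 replicates) and RBFOX2 in HEK293T (2 replicates). The 2 HEK293T pools are named so in their titles but carry K562 in a second label, and 1 K562 pool carries the name K563 in that label, so the titles were followed. Nothing in the labels says that replicates were separate cultures, so p-values measure the spread between these libraries only.

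Most histone mRNAs are made during DNA replication, lack introns and a poly(A) tail, and end in a conserved stem-loop that the stem-loop binding protein SLBP holds for processing and translation. Replacement variants are made throughout the cell cycle from genes that mostly have introns and whose mRNAs are polyadenylated like those of other genes. H3-3A and H3-3B encode the same H3 variant, which is put into chromatin outside replication, H2AZ1 and H2AZ2 encode the H2A.Z variants found near promoters, H1-10 encodes a linker histone, and MACROH2A1 encodes an H2A variant with a large macro domain that is enriched on the inactive X chromosome. The contrast asked of these genes was whether SLBP, which needs the stem-loop, was found on them, and which of the other 10 RBPs were.

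The 3' ends of the mRNAs show the difference in sequence between both kinds of gene. The next 6 lines give 30 bases at the 3' end of the reference mRNA of each gene (GENCODE canonical transcript, GRCh38), with the poly(A) signal AATAAA or ATTAAA in capitals where it lies in these bases. They are the last 30 bases of 5 mRNAs, and those of H3-3A, which were placed to hold its last signal, stop short of the annotated end at 226072019. An earlier signal of H3-3A, at base 1033 of its mRNA, is cut by the start of these bases and stands in lower case.
H3-3A, chr1:226071984-226072013, plus strand: taaaatacATTAAActatacctgcttttgg
H3-3B, chr17:75776434-75776463, minus strand: atgagactaaAATAAAatttttgaagttaa
H2AZ1, chr4:99948088-99948117, minus strand: ggataagttcAATAAAggtcatatcccaaa
H2AZ2, chr7:44831978-44832007, minus strand: tatgttctataaactgacagatctagaggg
H1-10, chr3:129314771-129314800, minus strand: ttgggcacAATAAAgcgtttaaacctttca
MACROH2A1, chr5:135334381-135334410, minus strand: tgagttgatttagtaaaatgttaaaccgtt
The next 4 lines give the stem-loop of replication-dependent or bimodal histone mRNAs used for comparison, with the 16 bases of stem and loop in capitals.
H1-2, chr6:26055739-26055764, minus strand: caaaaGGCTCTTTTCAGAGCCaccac
H3C2, chr6:26031592-26031617, minus strand: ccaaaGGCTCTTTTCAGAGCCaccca
H2BC4, chr6:26123467-26123492, minus strand: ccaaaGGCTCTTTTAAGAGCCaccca
H2AX, chr11:119094893-119094918, minus strand: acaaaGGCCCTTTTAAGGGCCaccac

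The stem-loop, searched as the 16-base histone consensus on the mRNA strand, was in 0 of the 6 mRNAs and in 70 of 70 mRNAs of replication-dependent histone genes, which were listed by symbol, against 86 of 19701 canonical coding mRNAs (0.437%). A poly(A) signal lay in the last 50 bases of 4 of the 6 mRNAs and of 3 of the 70 replication-dependent ones (4.29%), with 78.2% over all coding mRNAs. The annotated ends of H2AZ2 and MACROH2A1 held neither spelling of the signal in that window. The 6 genes also differ in build. H1-10 has 1 exon, H3-3A and H3-3B have 4, H2AZ1 and H2AZ2 have 5 and MACROH2A1 has 9. Their 3' untranslated regions (UTRs) run from 374 bases in H2AZ1 to 2161 in H3-3B and 2523 in H2AZ2, and H2AZ2 has an alternative last exon beyond its canonical end.

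The 54 libraries held 1707 merged peaks on the 6 genes of 2478204 in all, and the unmerged peak calls gave 1707 as well. Levels are given in reads-per-million (RPM), the reads in peaks on a gene over all peak reads of the library, with reads of touching peaks counted once. All peak reads of a 10plex library came to 10463 to 1601789 in K562 (median 156931.5) and 18254 to 2024759 in HEK293T (median 320166), and the deepest libraries were those of FAM120A and the shallowest those of PUM2. The SLBP libraries held 50391 and 11800 peak reads. Reads were deduplicated by molecular barcode, and intervals and floors below cover counting error only. Reads had to align to 1 place in the genome, and the annotation holds 43 processed pseudogenes with H3 symbols and 8 with H2AZ symbols, so exonic levels of the H3 and H2A.Z genes are uncertain. The part of these copies in the levels was not tested.

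In the 30 K562 10plex libraries, H3-3A ran from 0 to 134 RPM (median 8.997, with 12 libraries at 0), H3-3B from 0 to 969 (median 283, 1 at 0) and H2AZ1 from 0 to 285 (median 54.7, 7 at 0). H2AZ2 ran from 0 to 748.5 (median 92.1, 5 at 0), H1-10 from 0 to 1877 (median 62.4, 3 at 0) and MACROH2A1 from 0 to 354 (median 131, 4 at 0). The highest library was PRPF8 on H3-3A, LIN28B on H3-3B, DDX3 on H2AZ1, FAM120A on H2AZ2 and MACROH2A1, and EIF3G on H1-10. Each gene thus had its own leading protein in K562, with FAM120A leading on a pair of them. When the 10 RBPs were ordered by mean level in K562, the first stood apart from the second without overlap between pools on H3-3A, H3-3B, H2AZ2 and H1-10, and overlapped it on H2AZ1 and MACROH2A1. Further down the order most neighbours overlapped: 4 of 9 neighbouring pairs stood apart on H1-10, 2 on H3-3A and H3-3B, 1 on H2AZ1 and H2AZ2, and 0 on MACROH2A1.

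**Figure D1:**
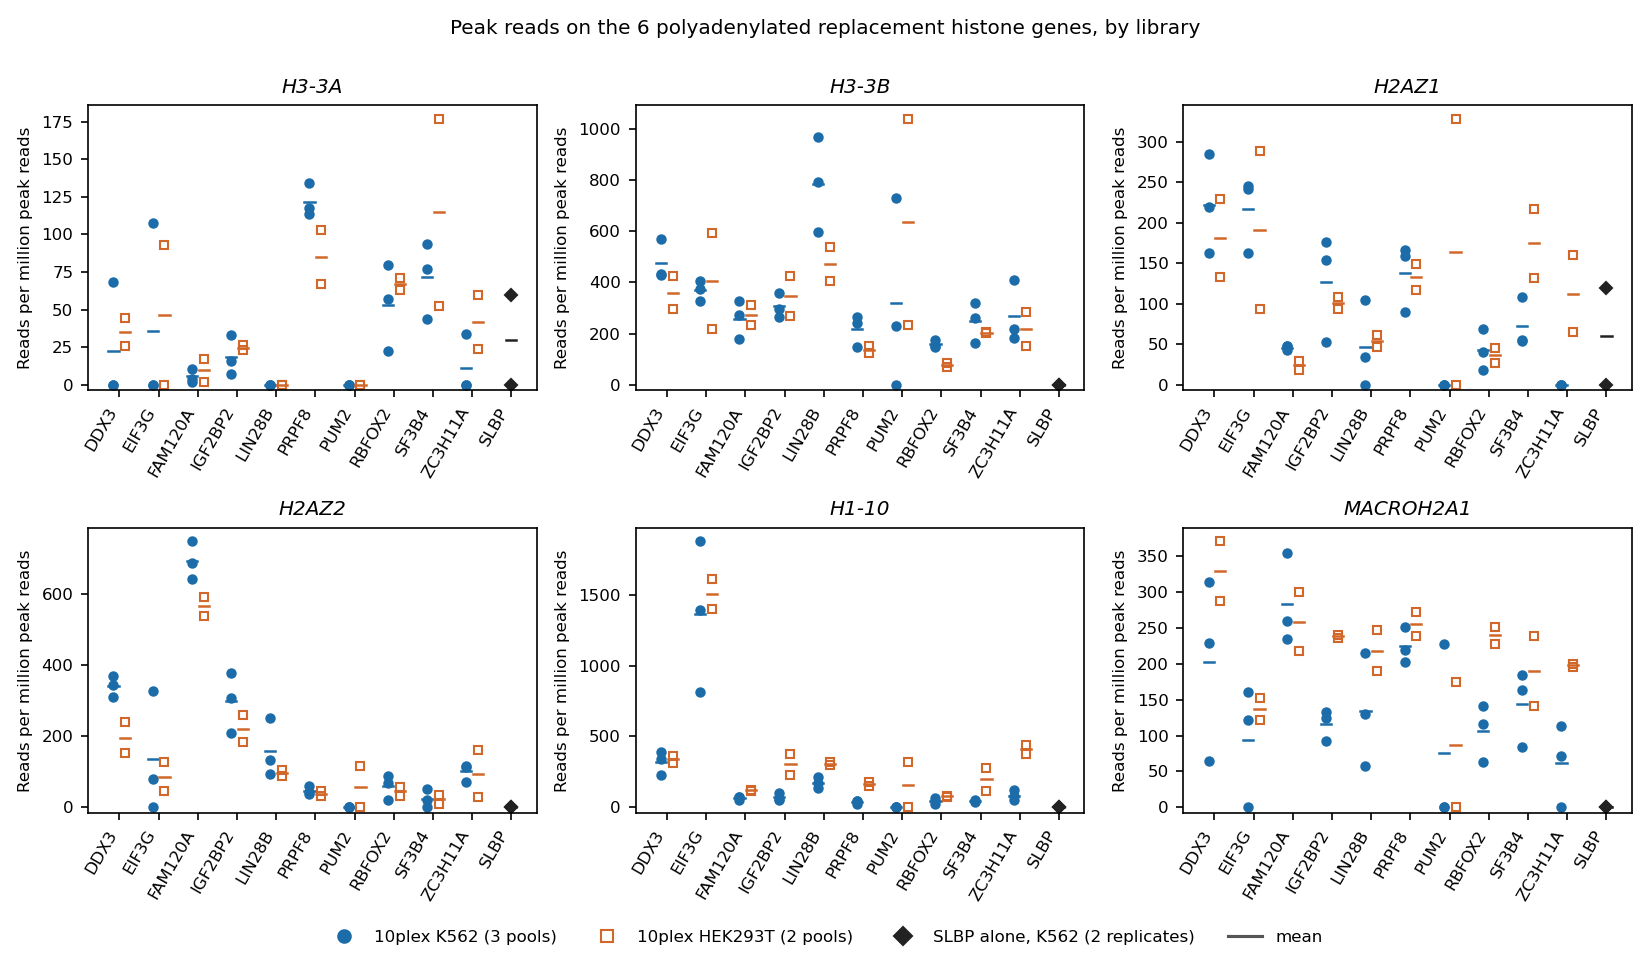
RPM on each of the 6 genes, by RBP (x axis), with 1 point per library (filled circles for the 3 K562 pools, open squares for the 2 HEK293T pools, black diamonds for the 2 SLBP libraries) and a bar at each mean. The vertical scale differs between panels. EIF3G stands far above the other RBPs on H1-10 and FAM120A on H2AZ2 in both lines, while SLBP has reads in 1 library on H3-3A and H2AZ1 and none on the other 4 genes.

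SLBP, the protein that holds the histone stem-loop, was nearly absent from the 6 genes and abundant on replication-dependent ones. SLBP replicate 1 had 9 reads on the 6 genes, which is 179 RPM, and replicate 2 had 0. The means of the 10 RBPs in the 3 K562 pools were 839, 1127 and 1086 RPM (1017.5 ± 156, SD, n = 3). The mean of SLBP was thus 0.0878 of that of the RBPs, and 29 of the 30 K562 libraries lay above both SLBP libraries. The exception was PUM2 replicate 1, with 0 reads of 10463. At the mean level of the 10 RBPs, 51.3 and 12.01 reads would have been seen in the SLBP libraries. SLBP and pool means did not overlap, and a two-sided exact permutation test gave p = 0.1, the smallest that 2 against 3 values allow. SLBP was run alone and the 10 RBPs in pools, so protein and format cannot be told apart in this contrast. RBFOX2 in HEK293T was run both ways and gave a mean of 428 RPM on the 6 genes alone and 542 in the pools. The part of the format in the SLBP levels was not tested.

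The 70 replication-dependent histone genes took 30.4% and 34.5% of the SLBP peak reads and a mean of 0.284% of those of the 10 RBPs, a ratio of 114 (p = 0.1 by the same exact permutation test). SLBP reads were found on 55 and 50 of the 70 genes, and 49 had reads in at least 1 of the 30 K562 libraries of the 10 RBPs. On H1-2, a linker histone gene with a stem-loop, SLBP gave 35482.5 and 29661 RPM against a mean of 624 for the 10 RBPs. H3C2 gave 21670.5 and 27288.1 against 108, and H2BC4 gave 20519.5 and 19915.3 against 84.2. H2AX, a variant gene whose mRNA carries a stem-loop, gave 13772.3 and 10847.5 against 120 (mean of the 10 RBPs). H1-2, H3C2 and H2BC4 are the replication-dependent genes with the most SLBP reads in these libraries, so their high SLBP level is no test. Both SLBP libraries were above each of the 3 pool means on all 4 genes. The sequences printed above show the 16 bases of stem and loop in each of these 4 mRNAs and in none of the 6.

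**Figure D2:**
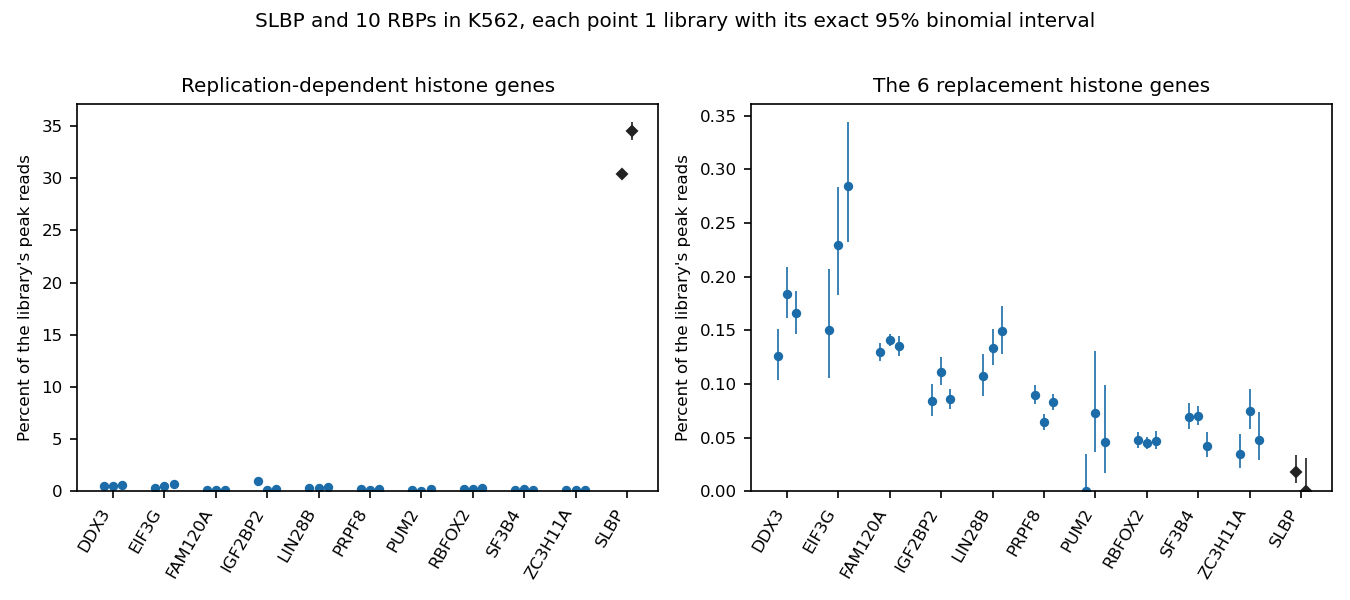
Percent of each K562 library's peak reads on the 70 replication-dependent histone genes (left) and on the 6 replacement genes (right), by RBP, with the exact 95% binomial interval of each library as a vertical line. Both SLBP libraries lie above 30% on the left and at 0.0179% and 0% on the right, below all but 1 of the 30 libraries of the 10 RBPs.

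The 9 reads were 3 peaks of 3 reads each, all inside introns, 1 on H3-3A and 2 on H2AZ1. Each had a log2 fold of 4.83 over the external RNA-seq background and a −log10 p of 2.49. That is short of the limit of p below 0.001 that the methods of the study use, so 0 of 3 were enriched. All 3 were in replicate 1, where 1678 of 4445 peaks were enriched, with 55.3% over both SLBP libraries. Peaks of 3 reads could give no higher fold in that library and so could not pass. The 0 of 3 is therefore no test of binding. On H3-3B, H2AZ2, H1-10 and MACROH2A1 both SLBP libraries had 0 reads, which allows a share of up to 0.00595% in replicate 1 and 0.0254% in replicate 2 (3 reads of each total). The mean shares of the 10 RBPs were 0.0341% on H3-3B, 0.0221% on H1-10, 0.0186% on H2AZ2 and 0.0144% on MACROH2A1. The first replicate thus lay below the RBP mean on all 4 genes, and the second could show a difference only on H3-3B. Against a floor of 3 reads over both libraries, SLBP was at least 7.07-fold below the RBP mean on H3-3B, 4.58-fold on H1-10, 3.86-fold on H2AZ2 and 2.99-fold on MACROH2A1, each with p = 0.1 by the exact permutation test. A mean can be raised by 1 protein, as by EIF3G on H1-10 (1361 RPM). Medians of the 30 K562 libraries were 283 RPM on H3-3B, 62.4 on H1-10, 92.1 on H2AZ2 and 131 on MACROH2A1, beside a floor of 48.2. PUM2, with a depth like that of SLBP replicate 2, had 0 reads on H1-10 and H2AZ2 in all 3 K562 pools. PUM2 gave 0, 729.5 and 228 RPM on H3-3B and 0, 0 and 228 on MACROH2A1, the last from 3 reads. SLBP thus did not stand apart from PUM2 without overlap on any of these 4 genes. On H3-3A SLBP gave 59.5 and 0 RPM against 34.0 ± 6.74 for the RBPs (SD over 3 pools), and on H2AZ1 119 and 0 against 91.2 ± 10.0. No difference was detectable there (p = 0.8 and 0.7, exact permutation test), since 1.71 and 0.401 reads on H3-3A would have matched the RBP mean.

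Which RBP stood above the other 9 on each gene was tested with the relative share, the level of an RBP on a gene over the sum of that level for the 10 RBPs of its pool, so that an even share is 0.1. The labels of the 10 RBPs were permuted within pools (exact one-sided test, 1000 choices in K562), and p-values were adjusted over all 97370 gene by RBP pairs of 9737 genes. In K562, 5 of 60 pairs on the 6 genes were called at an adjusted p below 0.05 (8.33%), with 6.29% called over all pairs. They fell on 5 of the 6 genes, where 62.9% of all genes tested had a call, so a call as such did not set these genes apart. Of the 60 pairs 4 were at the smallest p of the permutation test, with 4.28% of all pairs. No gene had more than 1 RBP called. The median of the highest relative share was 0.307 over the 6 genes and 0.375 over all genes.

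**Figure D3:**
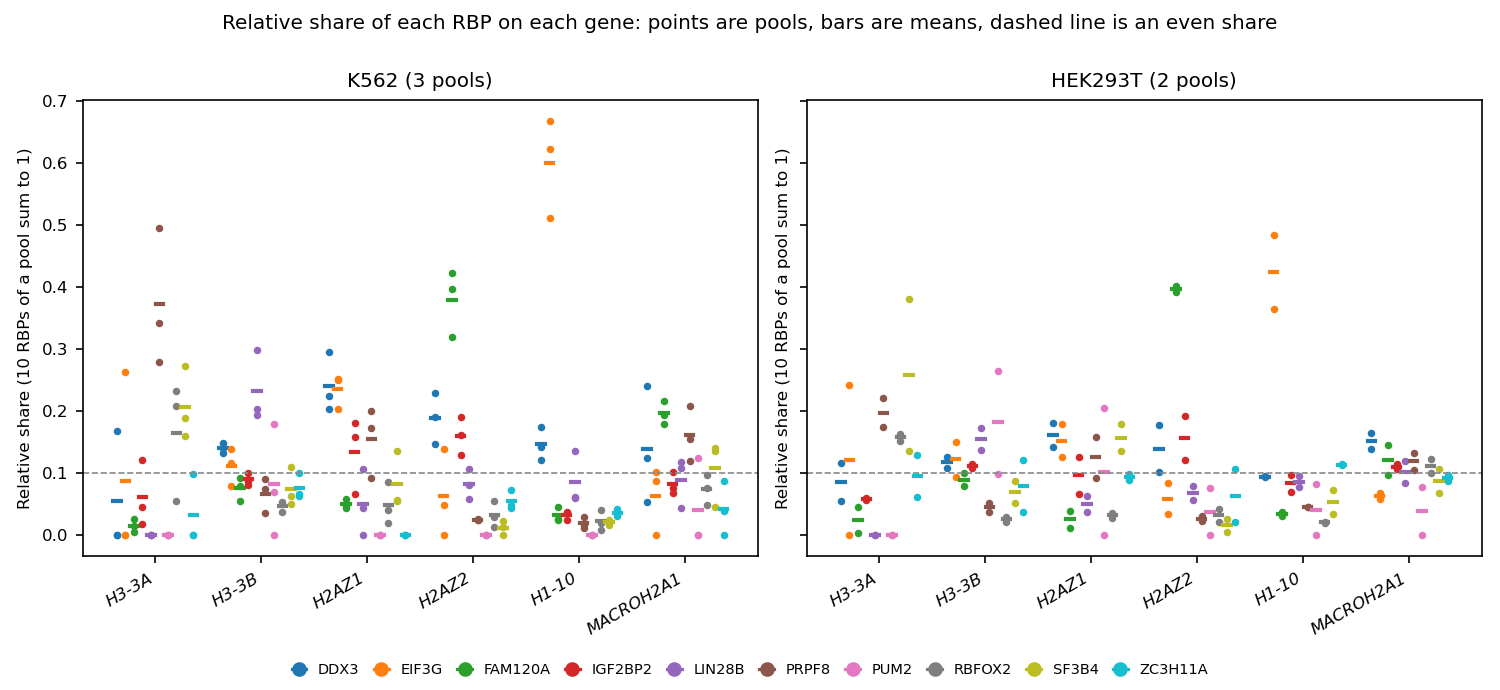
Relative share of each of the 10 RBPs (colours) on each gene in K562 (left) and HEK293T (right), with 1 point per pool and a bar at the mean. The dashed line is the even share of 0.1. EIF3G on H1-10 reaches a mean of 0.601 in K562 and 0.425 in HEK293T, and FAM120A on H2AZ2 0.380 and 0.397.

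H3-3A (chr1:226061851-226072019, plus strand), 1 of the 2 genes of the H3 variant, was led in K562 by PRPF8, the large protein at the core of the spliceosome. PRPF8 gave 134, 117 and 113.5 RPM in the 3 pools, above every other library of the same pool. Its relative share was 0.373 ± 0.111 (SD, n = 3; exact permutation p = 0.001, adjusted p = 0.0234), with values of 0.495, 0.343 and 0.280. SF3B4, a subunit of the U2 snRNP that marks 3' splice sites, came next with 43.5, 93.6 and 76.9 RPM, and RBFOX2, a splicing regulator that binds introns, with 56.7, 79.7 and 22.3. LIN28B and PUM2 had 0 reads on H3-3A in all 5 pools. In K562, 90.3% of the reads in peaks on H3-3A lay in introns by the peak's centre, 5.44% in the 5' UTR, 4.30% in the 3' UTR and 0% in the coding sequence. In HEK293T the intronic part was 87.2%. Introns thus held most of the uniquely aligned reads on this gene in both lines. Its exonic level is uncertain because of the processed H3 pseudogenes. Their part in these shares, in the order of the proteins and in the 0 reads of LIN28B and PUM2 was not tested.

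In HEK293T SF3B4 had the highest mean on H3-3A, at 177 and 52.0 RPM, with PRPF8 at 103 and 67.1, RBFOX2 at 71.0 and 62.9, and EIF3G at 0 and 92.9. SF3B4 led in pool 1 only and lay below the other 3 proteins in pool 2. The relative share of SF3B4 was 0.258 and had an unadjusted exact permutation p of 0.04 (adjusted p = 0.393), and that of PRPF8 was 0.198.

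H3-3B (chr17:75776434-75785893, minus strand) encodes the same protein from an mRNA whose 3' UTR has 2161 bases, against 540 in that of H3-3A. It was led in K562 by LIN28B, an RBP best known for blocking the maturation of let-7 microRNAs that also binds many mRNAs. LIN28B gave 596, 793 and 969 RPM, the highest of each pool, with a relative share of 0.233 ± 0.0581 (SD, n = 3; exact permutation p = 0.001, adjusted p = 0.0234). The helicase DDX3 was next at 434, 571.5 and 427 RPM. Reads on H3-3B lay mostly in the 3' UTR, 58.0% in K562 and 55.1% in HEK293T by peak centre, and those of LIN28B to 88.4%, 94.1% and 90.6% in the 3 K562 pools and 92.7% and 79.7% in HEK293T. In HEK293T LIN28B gave 537 and 405, and PUM2, a Pumilio protein that represses mRNAs through their 3' UTRs, gave 1041 and 232 from 19 and 8 reads. Neither was called there (relative shares of 0.155 and 0.182, exact permutation p = 0.11 and 0.06, unadjusted).

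H2AZ1 (chr4:99948086-99950355, minus strand), the first gene of the H2A.Z pair, had no call. DDX3 gave 163, 219 and 285 RPM and EIF3G, a subunit of translation initiation factor 3, gave 163, 246 and 241. Their relative shares were close to each other, 0.242 ± 0.0474 and 0.236 ± 0.0272 (SD, n = 3), and both lay above every other RBP in each of the 3 pools. The exact permutation p was 0.004 for DDX3 (adjusted p = 0.0584) and 0.008 for EIF3G (adjusted p = 0.0982). EIF3G rested on 4, 9 and 9 reads. PUM2 and ZC3H11A had 0 reads on H2AZ1 in K562. In HEK293T the pools of most proteins overlapped, with DDX3 at 230 and 133 RPM and EIF3G at 288 and 92.9. Intronic reads were 48% of those on the gene in K562 and 38.8% in HEK293T.

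H2AZ2 (chr7:44826791-44848087, minus strand), the second gene of the pair, was led by FAM120A, an RBP with many 3' UTR sites, in both lines. FAM120A gave 641.5, 748.5 and 686 RPM in K562 and 539 and 593 in HEK293T, from 450 to 1200 reads per library. All 5 values lay above the highest level of any other RBP on this gene in the same line, 379 for IGF2BP2 in K562 and 260 for IGF2BP2 in HEK293T. The relative share was 0.380 ± 0.0542 (SD, n = 3) in K562, with an exact permutation p of 0.001 and an adjusted p of 0.0234. It was 0.397 in HEK293T, at the smallest p that 2 pools allow (0.01, exact permutation). By peak centre, 67.9% of all 10plex reads on H2AZ2 lay in the canonical 3' UTR and 19.7% in the alternative last exon in K562, and 58.6% and 22.5% in HEK293T. The paralogues thus differed in which protein led, with FAM120A at 43.1 to 47.3 RPM on H2AZ1 in K562 and a relative share of 0.0509.

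H1-10 (chr3:129314771-129316286, minus strand), the linker histone gene without introns, was led by EIF3G. EIF3G gave 813, 1392 and 1877 RPM in K562, from 20, 51 and 70 reads, and 1608 and 1402 in HEK293T, from 106 and 166 reads. The next highest protein in K562, DDX3, gave 228, 391 and 340.5. The relative share of EIF3G was 0.601 ± 0.0811 (SD, n = 3; exact permutation p = 0.001, adjusted p = 0.0234) in K562 and 0.425 in HEK293T (p = 0.01, exact permutation, the smallest allowed). In each line it was the largest mean relative share of the 60 pairs. EIF3G reads on H1-10 lay in the 5' UTR to 100%, 100% and 77.1% in the K562 pools, and to 69.5% and 87.9% in HEK293T, by peak centre and with touching peaks counted in each.

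MACROH2A1 (chr5:135334381-135399914, minus strand), the longest of the 6 genes, had the lowest leading share of the 6 genes in both lines. FAM120A gave 259, 235 and 354 RPM in K562 and was the highest protein in 2 of 3 pools, PRPF8 gave 250, 203 and 219, and DDX3 gave 65.1, 313 and 229. The relative share of FAM120A was 0.197 ± 0.0184 (SD, n = 3; exact permutation p = 0.003, adjusted p = 0.0477). This call was close to the threshold, and the same permutation test lost it with externally enriched peaks only (adjusted p = 0.147) and with touching peaks counted in each (adjusted p = 0.143). In HEK293T DDX3 was first with 287 and 370.5 RPM (relative share 0.152, unadjusted exact permutation p = 0.02, adjusted p = 0.256), and FAM120A gave 299.5 and 218.

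In HEK293T, 2 pools allow no p below 0.01, and 0 of 60 pairs on the 6 genes and 0 of 139240 pairs over 13924 genes (0%) passed the adjusted threshold of the exact permutation test. At an unadjusted p below 0.05 there were 4 of the 60 pairs (6.67%), with 10.2% over all pairs, and in K562 7 of 60 (11.7%), with 12.8%. The pairs at the smallest p in HEK293T were FAM120A on H2AZ2 and EIF3G on H1-10, both called in K562, against 5.93% of all pairs at that p.

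Where each RBP sat within the genes was read from single peaks. The study compares the reads of a peak with those of the other 9 libraries of the pool at the same place, the complement control (CC), and takes a peak as enriched at p below 0.001 and more than 8-fold. In K562, 87 of the 591 member peaks with a CC value were enriched (14.7%), with 20.4% over all peaks, and in HEK293T 44 of 654 (6.73%), with 13.6%. Over the external RNA-seq background 454 of 688 were enriched in K562 (66.0%), with 49.9% over all peaks, and 145 of 828 in HEK293T (17.5%), with 34.7%. The share enriched on the 6 genes was thus below that of all peaks over the CC in both lines, and over RNA-seq above it in K562 and below it in HEK293T. At the sites of CC-enriched peaks, the K562 RNA-seq background held few or no reads. The K562 fold over RNA-seq thus mostly followed the peak's own reads. DDX3 on H3-3B had a log2 fold of 8.571 from 20 reads in K562 pool 1 and 1.385 from 78 reads in HEK293T pool 1. The shares over RNA-seq are therefore not comparable between the lines. The level of these mRNAs in each line was not measured here.

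The 131 CC-enriched peaks were unevenly spread over the proteins and their regions. These counts are not adjusted for depth, which in K562 ran from 10463 to 15079 peak reads for PUM2 to 655691 to 1601789 for FAM120A. Shares of the UTRs and coding sequence over all genes are not given here. The spread is thus not shown to be particular to the 6 genes. FAM120A had 41, of which 30 lay in the canonical 3' UTR, 9 in the alternative last exon of H2AZ2 and 2 in an alternative intron of that gene. EIF3G had 13, with 9 in the 5' UTR and 3 in the coding sequence, and DDX3 had 10, with 5 in each. LIN28B had 13, split as 5 in the coding sequence, 5 in the 3' UTR, 1 in the alternative 3' UTR and 2 in introns. The splicing proteins SF3B4 and PRPF8 had 24 and 17, and RBFOX2 had 8, all in introns, 1 of them at a 5' splice site. PUM2 had 3, and IGF2BP2 and ZC3H11A had 1 each. By reads rather than peaks, 79.2% of FAM120A reads on the 6 genes in K562 were centred in the canonical 3' UTR, 78.1% of EIF3G and 64.2% of DDX3 reads in the 5' UTR, and 72.2%, 72.7% and 52.4% in HEK293T.

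**Figure D4:**
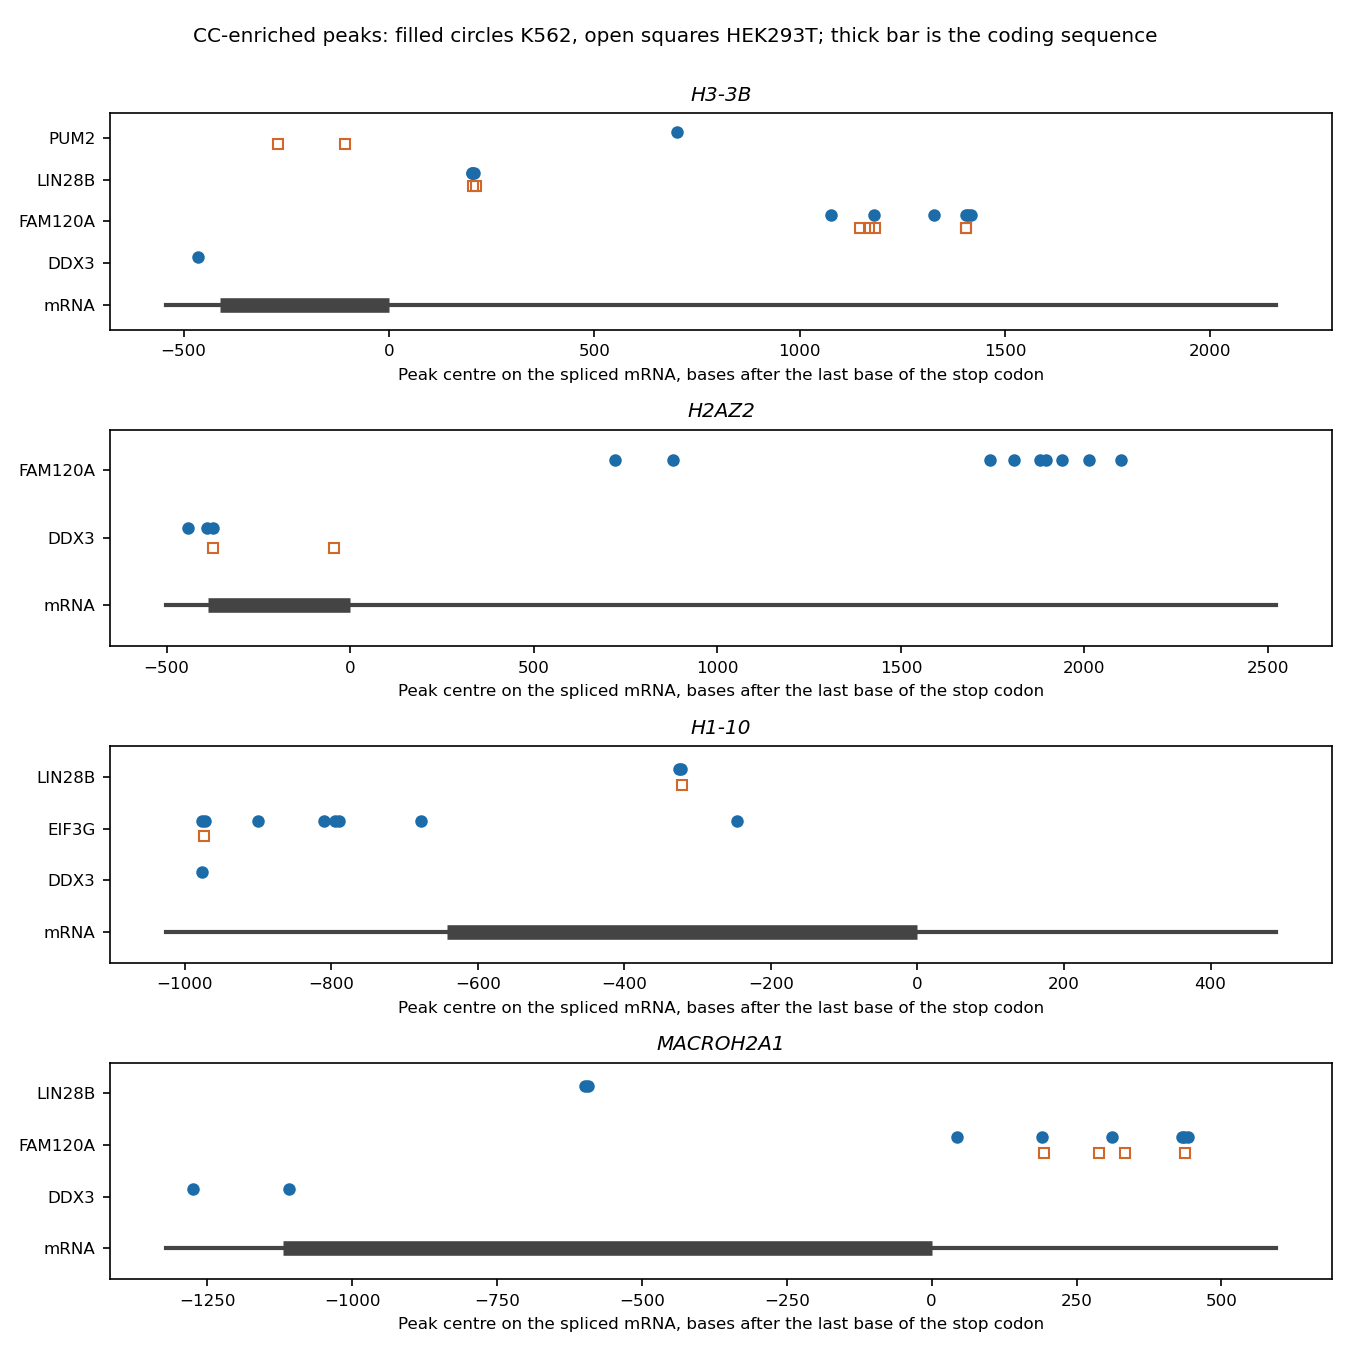
Centres of CC-enriched peaks on the spliced reference mRNA of H3-3B, H2AZ2, H1-10 and MACROH2A1, in bases from the end of the stop codon (x axis), by RBP (filled circles K562, open squares HEK293T). The thick bar is the coding sequence, and peaks centred in introns or in the alternative last exon of H2AZ2 are not drawn. FAM120A peaks lie in 3' UTRs, EIF3G peaks on H1-10 mostly in the 5' UTR, and the 5 LIN28B peaks on H3-3B at 1 place in the 3' UTR, 1 from each pool.

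Overlapping enriched peaks of the same RBP formed 77 sites, of which 53 were enriched in 1 pool only, 7 in all 3 K562 pools and 5 in all 5 pools. Some of the 53 had peaks without a CC value in other pools and could not be called there. FAM120A on H2AZ2, 880 bases after the stop codon, was enriched in K562 pool 3. Its peaks in the other pools had 132 to 446 reads and no CC value. The number of pools per site is thus a lower limit. The site of LIN28B on H3-3B was centred 205 bases after the stop codon, with 44 to 93 reads and a mean log2 fold over the CC of 4.30 ± 0.278 (SD, n = 5). FAM120A on H3-3B was centred 1409 bases after the stop codon, with 15 to 202 reads and a log2 fold of 3.92 ± 0.876 (SD, n = 5). Its fold in HEK293T pool 2 is approximate, as the CC reads there were not solved as a whole number. Both proteins thus bound the same 3' UTR at places far apart. FAM120A on MACROH2A1, 437 bases after the stop codon, was enriched in 4 of 5 pools with a log2 fold of 3.21 ± 0.332 (SD, n = 5), and the pool that missed gave 2.67, below the limit of 8-fold. EIF3G on H1-10, 157 bases before the start codon, was enriched in the 3 K562 pools (log2 folds of 3.66, 4.51 and 3.99), had 2.82 in HEK293T pool 1 and had no CC value in HEK293T pool 2. The centres of these 4 sites, shown to place them on the mRNA, have the following 30 bases in GRCh38, in lower case throughout, since GGAG was sought in the LIN28B site and not found in these 30 bases, and no motif was sought in the others.
LIN28B on H3-3B, chr17:75778376-75778405, minus strand: gtgacaagttgctaatatgcagaagggatg
FAM120A on H3-3B, chr17:75777172-75777201, minus strand: gtagtgtagaagcccacaggtgtagaactc
FAM120A on MACROH2A1, chr5:135334525-135334554, minus strand: ttcccccctcagaagaatcatgaatttgca
EIF3G on H1-10, chr3:129316045-129316074, minus strand: cccggcccccaccccagccctgccgcccgg

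On H2AZ2, FAM120A peaks in the canonical 3' UTR could be compared with the CC in K562 pool 3 mostly. That pool had 9 such peaks with 467 reads, of which 8 were enriched, at log2 folds of 2.94 to 5.69. Pool 1 had 10 peaks with 545 reads and pool 2 had 14 with 1125, but 0 and 3 of them had a CC value. In HEK293T 0 of the 11 and 9 peaks had one. The CC lists of those pools leave out peaks in repeats, but whether these peaks lie in repeats was not tested. Over the external background all of the 10, 14 and 9 K562 peaks were enriched, and 9 of 11 and 9 of 9 in HEK293T. The K562 background held few or no reads at these sites, so enrichment there mostly followed the reads of the peaks.

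Peaks of the spliceosome proteins sat at the ends of introns. PRPF8 works at the 5' splice site, and 15 of its 17 enriched peaks on the 6 genes covered the first base of an intron (88.2%), with 72.8% of its 67622 enriched peaks over all genes. SF3B4 binds around the branch point, upstream of the 3' splice site, and 22 of its 24 enriched peaks were centred within 100 bases upstream of an intron's end (91.7%), with 71.9% of 32748 over all genes. The median distance of the SF3B4 peaks to the intron's end was −41 bases. Peaks were counted in each pool, here and over all genes, so a site called in several pools counts more than once. The PRPF8 peaks were on H3-3A, H2AZ1 and MACROH2A1 and the SF3B4 peaks on these and H3-3B, and neither protein had an enriched peak on H2AZ2 or on H1-10, which has no intron.

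**Figure D5:**
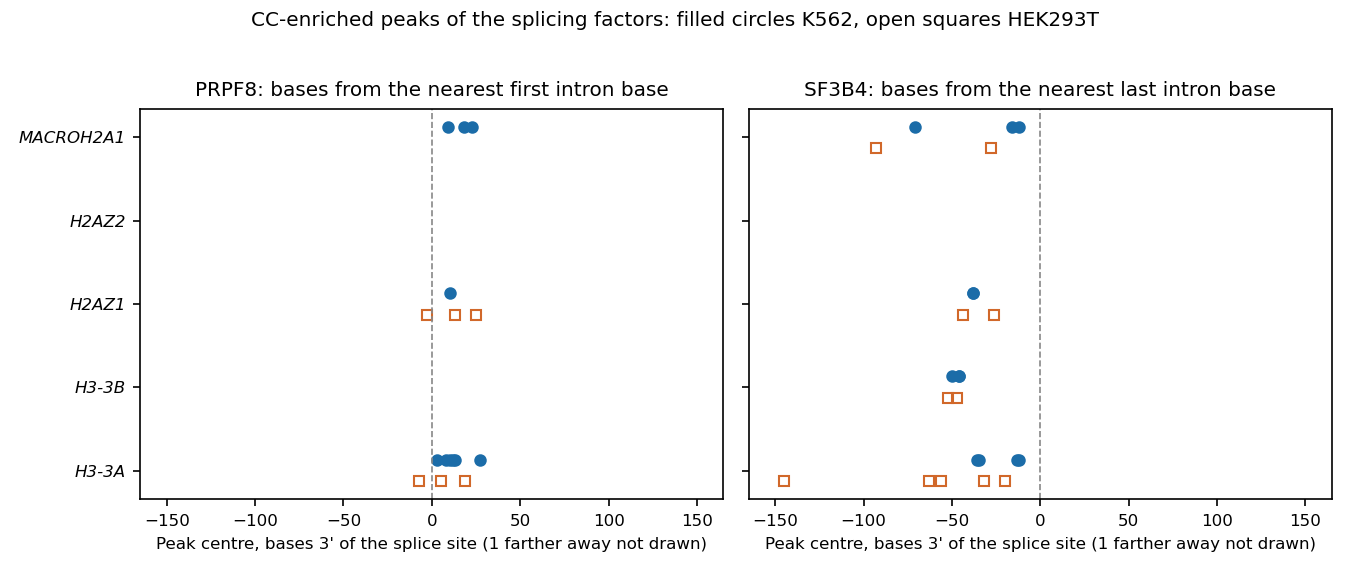
Centres of CC-enriched peaks of PRPF8 relative to the nearest first intron base (left) and of SF3B4 relative to the nearest last intron base (right), in bases with positive values 3' of the site, by gene (filled circles K562, open squares HEK293T). PRPF8 peaks gather around 0 and SF3B4 peaks upstream of 0, with a median of −41, and 1 peak of each protein lies beyond the axis.

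Of the 5 sites that were enriched in all 5 pools, 3 were of these proteins. PRPF8 at the 5' splice site of intron 2 of H3-3A had 11 to 23 reads and a log2 fold over the CC of 4.43 ± 0.647 (SD, n = 5). SF3B4 at the 3' splice site of intron 3 of H3-3A had 3 to 10 reads and a log2 fold of 5.11 ± 0.808, and SF3B4 at that of intron 1 of H3-3B had 14 to 25 reads and 3.84 ± 0.457 (SD, n = 5). At the H3-3B site, CC reads were not solved as whole numbers in K562 pool 2 and HEK293T pools 1 and 2. Fold and call are approximate in those pools. The lines below give these splice sites, with the intron in capitals and the exon in lower case, since the peaks lay across or beside the border.
H3-3A intron 2, 5' splice site, chr1:226064470-226064494, plus strand: atcgttacagGTATTAAAAAACAGG
H3-3A intron 3, 3' splice site, chr1:226071326-226071355, plus strand: AATTTTTTCTTCATTCCTTTTGCAGgaggc
H3-3B intron 1, 3' splice site, chr17:75779180-75779209, minus strand: CTTATCTTCGGGGCGTCTTTCTTAGgtgaa

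RBFOX2 recognises GCAUG in RNA, and it had 8 CC-enriched peaks on H3-3A, H2AZ1, H2AZ2 and MACROH2A1. GCATG was found on the gene's strand within 101 bases around the centre of 6 of the 8 (75%), with 59.7% of its 26348 enriched peaks over all genes. The motif is short and a match is a description only, with a site called in more than 1 pool counted in each. The only RBFOX2 site enriched in both lines was in a distal intron of MACROH2A1, where peaks were found in 6 of 7 RBFOX2 libraries, 3 peaks were enriched over the external background with RBFOX2 alone, and the motif is repeated. It is shown here beside a site on H3-3A with 1 copy, with GCATG in capitals. The copy on H3-3A lies outside the CC-enriched peak of that site (chr1:226065887-226065932), on its 5' side.
MACROH2A1, chr5:135357113-135357142, minus strand: ttggGCATGCATGCATGcagggagagccac
H3-3A, chr1:226065867-226065896, plus strand: ttccaaattgttGCATGtgcttatatcatt

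Of the other motifs sought on the gene's strand within 101 bases, GGAG, which LIN28B binds in let-7 precursors, was near 10 of the 13 LIN28B peaks (76.9%), with 58.8% of 27570 over all genes. Peaks were counted in each pool, and 5 of the 13 were at the site on H3-3B. The Pumilio motif TGTANATA was near 0 of the 3 PUM2 peaks, with 17.4% of 1895 over all genes, and it was in 0 of the 6 reference mRNAs, with 28.0% of coding mRNAs.

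RBFOX2 alone and RBFOX2 in the 10plex were compared in HEK293T. Alone it gave 417 and 438 RPM on the 6 genes and in the pools 584 and 500, which did not overlap (exact permutation p = 0.33, the smallest that 2 against 2 allow). H1-10 gave 13.5 and 24.8 alone and 74.1 and 79.8 in the pool, and MACROH2A1 183 and 161 alone and 252 and 227 in the pool. These 2 of 6 genes stand beside 26.1% of all 13924 genes tested in this line that were higher in the pool without overlap. The other 4 genes overlapped, with means of 71.5 and 66.9 on H3-3A, 77.9 and 77.5 on H3-3B, 38.9 and 36.2 on H2AZ1, and 48.2 and 45.4 on H2AZ2. Of 188 member peaks with RBFOX2 alone, 17 were enriched over the external background (9.04%), with 10% over all peaks.

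Levels of the 10 RBPs on the 6 genes were set side by side in both lines, where 3 against 2 libraries allow no p below 0.1. Over the 60 pairs of gene and RBP, 12 were higher in HEK293T without overlap (20%), with 27.2% of the 90760 pairs of all genes tested in both lines, and 7 were higher in K562 (11.7%), with 13.6%. Neither share of the 6 genes was above that of all genes. For the reads of the 6 genes together, IGF2BP2, PUM2, RBFOX2, SF3B4 and ZC3H11A were higher in HEK293T without overlap, FAM120A was higher in K562, and the other 4 overlapped. ZC3H11A, an mRNA export protein, gave 352, 749 and 481.5 RPM in K562 and 978 and 1169 in HEK293T. Of the 6 genes, H1-10 differed for the most proteins and was higher in HEK293T without overlap for 7 of 10 RBPs, the exceptions being DDX3, EIF3G and PUM2. Over all genes, 12.1% were so for at least 7. PRPF8 on H1-10 gave 47.8, 25.9 and 48.2 RPM in K562 and 149 and 177 in HEK293T (exact permutation p = 0.1). IGF2BP2 on H1-10 gave 59.1, 54.6 and 100 against 231 and 376, and ZC3H11A 50.3, 79.4 and 120 against 379 and 439. MACROH2A1 was higher in HEK293T for 3 RBPs and lower for 0, where 44% of all genes were higher for at least 3, and H3-3B was higher in K562 for 3, DDX3, LIN28B and RBFOX2, where 19% were. Fewer transcripts and less binding per transcript cannot be told apart in these libraries.

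Genes of the same biology were counted with the same K562 test, where 62.9% of genes had a call. Of 19 genes for chaperones and exchange complexes that place these variants into chromatin, 19 were tested and 10 had a call. The strongest were LIN28B on UBN1, a subunit of the HIRA complex that deposits the H3 variant (relative share 0.441 ± 0.154), FAM120A on ANP32E, a chaperone that removes H2A.Z (0.432 ± 0.113), and SF3B4 on RUVBL1, an ATPase of the exchange complexes (0.427 ± 0.15, SD, n = 3 for each), all with an exact permutation p of 0.001 and an adjusted p of 0.0234. Of 10 other variant genes 3 had reads, 2 were tested and 1 had a call, FAM120A on CENPA (0.389 ± 0.0139, the same p), the centromeric H3 variant, which was named after its value was seen. Of 70 replication-dependent genes 36 were tested and 11 had a call. In HEK293T 0 genes of any of these lists passed, as for all genes.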

How the data were processed

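ABC libraries were deposited as peak lists per library. Per the methods and labels, the authors trimmed reads (cutadapt 2.8), aligned them uniquely to GRCh38 (STAR 2.7.6), removed duplicates by molecular barcode, called peaks per library with CLIPper and did not pool replicates. The deposited merged peaks give a log2 fold and a −log10 p (capped at 400) over external RNA-seq, the deposited CLIPper peaks a p-value and, in part, a display score, and the CC lists a packed name that holds a p-value and a chi-squared value, and for K562 pool 3 a log2 fold and −log10 p. Those CC lists leave out repeats except in K562 pool 3.

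Whole reads per peak were solved from fold and p. They gave back the deposited p for 71.2 to 100% of peaks by library and equalled the caller's own counts for 97 to 99.7% in 22 libraries that give them. CC reads were solved likewise, as whole numbers for 57.5 to 94.1% of peaks by library. The step was run on simulated data made from K562 pool 3, where it gave the direction of 93.9 to 98.8% of peaks and 100% of enriched peaks with 0% false calls. That statistic was made from known reads with the formula that the step inverts. It therefore does not give the error rate in the other pools, where some solutions were not whole numbers.

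Genes were those of GENCODE 44 (the authors used 35), with at least 10 reads in each pool to be tested. The 10 libraries of a pool come from 1 tube, which pairs them by design, so RBP labels were permuted within pools, with Benjamini-Hochberg adjustment over all pairs. On simulated data for K562 with 2000 pairs changed at each fold over 9737 genes, an adjusted p below 0.05 was reached for 65.6% of 3-fold, 90.5% of 6-fold and 97.7% of 12-fold changes, and for HEK293T for 0%, as its smallest p is 0.01. With only 67, 67 and 66 pairs changed, 0% reached it in K562 as well (lowest adjusted p 0.235), so a call of the permutation test needs many changed pairs over all genes. All 6 members are named, beside them H1-2, H2AX, the replication-dependent genes with the most SLBP reads, and at most 3 genes of the other lists by p and relative share. Members and lists were chosen with earlier results of these data known. Alternatives were other statistics, peak sets, read minimums, limits, backgrounds, regions, pairings and leaving out replicates. Peaks were handled in Python 3.11.15 with numpy 2.4.6 and scipy 1.17.1, and sequences were read with samtools 1.23.1.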

Additional observations from a re-analysis of the deposited data

Results flagged for a closer look

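On 3 pairs of gene and protein, every pool of 1 line lay above the even relative share of 0.1 and every pool of the other line below it. Of the 60 pairs this is 5%, beside 4.58% of the 90760 pairs of all genes tested in both lines, and the difference between lines was not tested. DDX3 on H1-10 had a mean relative share of 0.147 in K562 (0.121 to 0.175) and 0.0945 in HEK293T. ZC3H11A on H1-10 had 0.0367 in K562 (0.0316 to 0.0429) and 0.114 in HEK293T. RBFOX2 on MACROH2A1 had 0.0744 in K562 (0.0490 to 0.0971) and 0.112 in HEK293T. In K562, ZC3H11A on H1-10 rested on 3 to 7 reads per library.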

How the results depend on the processing

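No called result changed direction under the alternatives run. Among the proteins whose pools overlapped between lines, the K562 minus HEK293T level on the 6 genes (RPM) changed sign by less than the SD between pools for DDX3 (146 to -63 with touching peaks counted in each), EIF3G (-157 to 197 without K562 pool 1 and 127 without HEK293T pool 1) and PRPF8 (-21.2 to 51.8 without K562 pool 2 and 21.8 without HEK293T pool 1). Leaving out any of the 3 K562 pools gave 0 to 0 calls, on the 6 genes and over all genes, since 2 pools allow no p below 0.01 (adjusted p by the exact permutation test 0.174 to 0.33 for the 5 calls), and the relative share of each called pair was above 0.1 in each pool. With no replicate block, K562 had 7352 calls over all genes and 6 on the 6 genes, and HEK293T had 0. A minimum of 100 reads gave 2953 calls over all K562 genes. FAM120A on MACROH2A1 also lost its call with no minimum of reads (permutation test, adjusted p = 0.0701). CC-enriched peaks on the 6 genes numbered 27 in K562 and 14 in HEK293T with p below 1e-05 and more than 16-fold, 175 and 149 at any fold, 389 and 89 over RNA-seq on the same peaks, and 54 to 65 and 16 to 28 with a pool left out. With only CC reads known or solved as whole numbers, an alternative added after the data were seen, HEK293T had 29. Peaks enriched over RNA-seq numbered 75 in HEK293T and 5 for RBFOX2 alone at the stricter limits, and 277 to 324 in K562, 64 to 81 in HEK293T and 5 to 12 for RBFOX2 alone with a replicate left out. By peak centre, 16 enriched peaks lay in coding sequence and 15 at 5' splice sites in place of 31 and 2. What depth limits is the SLBP contrast, where replicate 2 has 11800 reads, and PUM2, with 10463 to 15079 in K562.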
